A study of Mus musculus with 41 samples.

Results

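The 9 CpGs described here lie in 1 amplicon over the 3′ part of intron 1 and exon 2 of mouse Il4, the gene of the Th2 cytokine IL-4. They are defined by position, as every CpG on the minus strand of chr11:53431630-53431948 (genome build mm9), the strand from which Il4 is transcribed, and they are 9 of the 64 CpGs that the amplicons of the Il4 locus cover. Counted along the direction of transcription they are CpG29 to CpG37, and the first 3 of them (CpG29, CpG30 and CpG31) were contrasted with the last 6.

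In mammalian DNA most CpGs carry 5-methylcytosine (5mC), and enhancers and promoters that become active in a cell lineage tend to lose it. TET enzymes oxidise 5mC in steps, first to its hydroxymethyl form (5hmC), then to the formyl form (5fC) and last to the carboxyl form (5caC). The oxidised bases can be lost as DNA replicates, and 5fC and 5caC can also be cut out by the glycosylase TDG. GATA3 is the transcription factor that directs naïve CD4 T cells to the Th2 fate and binds at the Il4 locus.

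The study asked how T cells lose methylation at Il4 as they become Th2 cells and whether TET enzymes or TDG are needed. All cells came from C57BL/6 mice 8 to 16 weeks old, and naïve CD4 T cells were sorted from spleen and lymph nodes. For the first cycle they were stimulated for 2 days through CD3 and CD28 with IL-4 at 1000 U/ml and anti-IFN-γ and then grown with IL-2 at 20 U/ml, for 3 days by the labels. For the second cycle the Th2 cells were stimulated once more for 1 day under the Th2 conditions and grown with IL-2 for 4 days.

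The wild-type (WT) groups for bisulfite sequencing were naïve cells (n = 3 libraries), a first set of Th2 cells of the first cycle (n = 3), and Th2 cells of either cycle from control mice of the TET and the TDG line (n = 2 libraries for each line and cycle). TET iTKO cells carried Tet1, Tet2 and Tet3 fl/fl alleles, the tamoxifen-inducible ERT2-Cre and a Rosa26-YFP LSL reporter. TDG iKO cells carried Tdg fl/fl, the same ERT2-Cre and a Rosa26-H2B-EGFP/GPI-mCherry LSL reporter. Knockout and control mice of both lines received tamoxifen, so that exposure to it is shared within each line, and cells positive for the reporter were sorted. The labels tie the naïve cells and the first set of Th2 cells to neither line. Where libraries of the lines are compared with naïve cells, line, tamoxifen and set thus cannot be told apart from the change. Each of these genotypes had 2 libraries per cycle. The methods report that deletion of the floxed exons was incomplete, and the Il4 amplicons do not cover those exons, so the genotypes cannot be checked in these data.

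Further experiments had 1 library per group, where the PB samples of the TDG line, labelled as 2 replicates, are taken as runs of 1 library. For CRISPR depletion of GATA3, T cells of Rosa26-Cas9 mice were transduced with a retrovirus for either of a pair of sgRNAs (sgGATA3-1 and sgGATA3-2) or with a mock vector. They were sorted on day 6 of the first cycle. Pyridine borane (PB) sequencing, which reads 5fC and 5caC as T, was applied to first-cycle Th2 cells of TDG iKO and control mice. A separate pair of first-cycle Th2 samples came from the CD4-Cre line. Its KO mice carried Tdg fl/fl alleles, Cre under the T cell-specific Cd4 promoter and the same LSL reporter as the TDG iKO mice. The methods describe tamoxifen only for the inducible Cre. The paper reports that some Tdg mRNA remained in thymocytes of the CD4-Cre KO mice. TET-assisted pyridine borane sequencing (TAPS), which reads 5mC and 5hmC as T, was applied to naïve cells and Th2 cells. TAPS samples are not described in the article's text.

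CpG29 (position 53431923), CpG30 (53431883) and CpG31 (53431879) lie in intron 1, outside every annotated exon. They are shown whole, with the CpGs in capitals, because the largest differences fell here.
CpG29-CpG31, minus strand, chr11:53431855-53431948: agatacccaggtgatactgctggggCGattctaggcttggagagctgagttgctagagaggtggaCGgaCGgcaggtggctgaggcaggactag
CpG29 is the first base after the forward primer, 25 bases from the amplicon's end. CpG30 and CpG31 are 4 bases apart and share the context GACGG.

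CpG32 (53431800) and CpG33 (53431777) lie in intron 1 of the main transcript, 23 bases apart, and both fall within the first exon (53431672 to 53431854) of a second annotated transcript. CpG34 (53431718), CpG35 (53431709), CpG36 (53431690) and CpG37 (53431676) lie in exon 2 (53431672 to 53431719), a coding exon of 48 bases. The windows below show CpGs that kept high methylation beside CpGs that lost more of it, with the CpGs in capitals.
CpG32, minus strand, chr11:53431789-53431810: gggagtctccCGggtggggggt
CpG33, minus strand, chr11:53431766-53431787: ggaggtgtagCGatgctttctc
CpG34-CpG35, minus strand, chr11:53431699-53431727: gcatcaagaCGccatgcaCGgagatggat
CpG36-CpG37, minus strand, chr11:53431669-53431696: gccaaaCGtcctcacagcaaCGaaggta

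The amplicon of 319 bases has 9 CpGs and a GC content of 55.5%, and 4.73% of all windows of that length on chromosome 11 hold as many CpGs. The GATA motif, searched as the letters GATA on either strand, occurs 3 times in it, and 28.5% of such windows hold as many. Copies at 53431944 to 53431947 and 53431933 to 53431936 read GATA on the minus strand within the primer, and the copy at 53431741 to 53431744 reads TATC there. CpG29 is 10 bases from the nearest copy, the least of the 9 CpGs, and CpG37 is 65 bases from it, the most. A match is a description of letters and says nothing of binding.

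All 9 CpGs had at least 100 reads in each of the 35 samples of naïve and Th2 cells, so none was dropped. The median reads per CpG ran from 642 in naïve replicate 2 to 30655 in TET WT replicate 2 of the second cycle among the 27 bisulfite samples, from 4309 to 6612 among the 6 PB samples, and from 4428 to 4959 in the 2 TAPS samples. The lowest number at any of the CpGs was 619. Reads at CpG33 to CpG37 numbered 59.0% to 93.2% of those at CpG29 to CpG32 in the bisulfite samples. Cytosines outside CpGs in the same amplicon give the background of each method. Pooled over these cytosines, 0.176% to 0.420% were read as C after bisulfite. As T, 0.161% to 0.411% were read in PB sequencing (C reads halved) and 0.195% to 0.199% in TAPS. Single such cytosines reached 2.00% after bisulfite, 2.31% in PB sequencing, and 8.20% in naïve and 4.20% in Th2 cells in TAPS. The amplicons carry no molecular identifiers and 1 molecule may give many reads, so the intervals given for single libraries, which are 95% Wilson intervals, cover counting error only.

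In naïve cells all 9 CpGs were highly methylated. The methylation level, meaning the percentage of reads that kept C after bisulfite and so 5mC and 5hmC together, averaged over the 9 CpGs 94.7%, 93% and 93.9% in the 3 libraries, or 93.8% ± 0.852 (SD, n = 3). CpG29 was lowest on average, with 93.4%, 88.3% and 90.4% in replicates 1, 2 and 3, and CpG35 was highest, with 96.6%, 95.8% and 97.6%. Over the first 3 CpGs the mean was 92.7% ± 1.19 (SD, n = 3) and over the last 6 it was 94.4% ± 0.759 (SD, n = 3), so that the first 3 were lower by a difference of -1.76 ± 0.754 points (SD, n = 3), and lower in 3 of 3 libraries. The profile in naïve cells was thus nearly flat.

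After the first Th2 cycle the profile was graded, with the loss greatest at the 5′ end. In the first set of WT Th2 cells, CpG29 had 46.4%, 43.0% and 65.7% in replicates 1, 2 and 3, CpG31 had 66.1%, 69.0% and 81.4%, and CpG30 had 77.4%, 73.8% and 86.8%. Replicate 3 was the highest of the libraries at all of the first 3 CpGs, and none of the 3 libraries overlapped with the naïve range at these CpGs. CpG34, in exon 2, had 92.7%, 95.8% and 92.5%, which overlaps with the naïve range of 94.9% to 95.8%. The mean over the first 3 CpGs was 67.7% ± 8.89 (SD, n = 3) and over the last 6 it was 89% ± 3.69 (SD, n = 3), a difference of -21.3 ± 6.91 points. Replicate 3 also stood apart in the mean over the 9 CpGs, with 87.4% against 77.7% and 80.6%.

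A CpG was called changed at an adjusted p under 0.05 in a quasi-binomial regression with dispersions moderated by limma, adjusted over all Il4 CpGs tested. By that rule 6 of the 9 CpGs were called lower than in naïve cells, where 33 of 56 Il4 CpGs tested (58.9%) were called, so the count for the 9 is near the background. CpG29 fell most, by a difference of -39.0 points (limma-moderated adjusted p = 1.99e-06), followed by CpG31 with -21.2 points (adjusted p = 1.93e-05) and CpG30 with -14.6 points (adjusted p = 0.000162). CpG32 changed by -10.2 points, CpG36 by -6.79 and CpG37 by -5.70, and at CpG32 and CpG36 no Th2 library overlapped with the naïve range, while at CpG37 replicate 3, with 92.8%, did. CpG33, CpG34 and CpG35, with -3.87, -1.85 and -4.13 points, did not pass. At CpG35 the groups did not overlap either, and limma on log ratios called it (adjusted p = 0.0299). That tool called 7 of the 9 CpGs and 34 of the 56 Il4 CpGs in all.

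The calls at the 3′ end rested on single libraries. CpG36 (adjusted p = 0.0186) lost its call without naïve replicate 3 or Th2 replicate 1, and its adjusted p ran from 0.00136 to 0.0772 over the 6 fits that left out a library. CpG37 (adjusted p = 0.0461) kept its call in 1 of these 6 fits (0.00312 to 0.295), the one without Th2 replicate 3. In that fit 8 of the 9 CpGs and 38 of 56 Il4 CpGs were called. CpG33 was called without Th2 replicate 3 (0.036 to 0.914), and CpG35 without Th2 replicate 2 or 3 (0.038 to 0.231). The calls at CpG29, CpG30, CpG31 and CpG32 held in 6 of 6 such fits.

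The control mice of the TET and TDG lines gave the same order of CpGs, with lower mean levels at 8 of the 9 (not CpG33). Over these 4 first-cycle WT libraries CpG29 had 28.9% and 30.8% in the TET line and 38.2% and 37.9% in the TDG line, CpG31 had 53.9%, 61.4%, 68.0% and 63.5%, and CpG34 had 94.9%, 92%, 91.7% and 91.7%. CpG29 was thus lower in each of these libraries than in any of the first set, while CpG34 overlapped with it. Here the first 3 CpGs averaged 55.1% ± 5.29 (SD, n = 4) and the last 6 averaged 87.1% ± 1.19 (SD, n = 4), a difference of -32.0 ± 5.11 points.

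By the second cycle all 9 CpGs had lost methylation, and the gradient along the amplicon had deepened. CpG29 had 7.07% and 10.5% in TET WT libraries and 13.4% and 10.1% in TDG WT libraries, CpG31 had 32.4%, 31.5%, 32.8% and 31.7%, and CpG30 had 41.4%, 43.4%, 42.6% and 39.1%. Each of these values lies below every first-cycle library. In exon 2, CpG36 had 66.3%, 63.0%, 60.6% and 51.0%, and CpG35 had 83.5%, 79.6%, 81.5% and 75.1% in the same libraries. TDG WT replicate 2 was lowest at both. The mean over the first 3 CpGs was 28% ± 1.28 (SD, n = 4) and over the last 6 it was 68.8% ± 4.38 (SD, n = 4), a difference of -40.9 ± 4.36 points.

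All 9 CpGs were called lower in WT cells of the second cycle than in naïve cells, where 42 of 56 Il4 CpGs (75%) were called, and all 9 were called lower than in the first cycle of the same lines, where 38 of 46 (82.6%) were called. Against naïve cells the differences ran from -80.5 points at CpG29 (limma-moderated adjusted p = 1.05e-11) to -16.5 points at CpG33 (adjusted p = 3.01e-05). Between the cycles they ran from -29.6 points at CpG31 (adjusted p = 3.4e-07) to -10.9 points at CpG35 (adjusted p = 0.00047). No library of the second cycle overlapped with a naïve or first-cycle library at any of the 9 CpGs.

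The share of the loss that fell in the first cycle varied among the CpGs and with the libraries. Of the whole loss from naïve cells to the second cycle, the WT cells of both lines had reached 70.6% at CpG29 by the end of the first cycle, 51.7% at CpG31, 46.6% at CpG30 and 38.3% at CpG32. At CpG33 the share was 16.4%, at CpG34 17.5%, at CpG36 24.1%, at CpG37 28% and at CpG35 35.2%. Together, the first 3 CpGs had completed 58.1% and the last 6 had completed 28.6%. With the first set of Th2 libraries in their place, a comparison added after seeing the data, the shares were 48.5% at CpG29, 38.6% for the first 3 and 21.2% for the last 6, while at CpG33 the share was higher, 23.5%, with single libraries from 1.82% to 62.5%. The shares of single CpGs among the last 6 are thus uncertain (at CpG33 ± 14.8 over the libraries of both lines, SD, n = 4). In points, the differences were -37.6 ± 5.42 in the first cycle and -27.1 ± 5.44 in the second for the first 3, and -7.32 ± 1.41 and -18.3 ± 4.53 for the last 6 (combined SDs). At CpG36, for example, they were -8.22 ± 1.31 and then -25.8 ± 6.68 points, and at CpG29 -56.8 ± 5.43 and then -23.7 ± 5.46 points. No test was made of the differences between CpGs, which come from the same reads.

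Single neighbours departed from a smooth gradient, some of them in every Th2 library. CpG29 was the lowest of the 9 CpGs in 20 of 22 Th2 bisulfite libraries, and the exceptions were the TET iTKO libraries of the second cycle. CpG31 was below CpG30, from which it is 4 bases away, in 22 of 22 Th2 libraries, by 7.54 ± 2.49 points (SD, n = 7) in WT cells of the first cycle and 9.54 ± 1.85 points (SD, n = 4) in the second. In naïve cells that difference was 0.559 ± 2.43 points (SD, n = 3).

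CpG32 was below CpG33 in 22 of 22 Th2 libraries and in 0 of 3 naïve libraries. The gap was 7.85 ± 5.39 points (SD, n = 7) in the first cycle and 25.8 ± 5.06 points (SD, n = 4) in the second. CpG36 was below CpG35 by 4.86 ± 2.85 points (SD, n = 7) and 19.7 ± 3.52 points (SD, n = 4), and it was below both of its neighbours in 16 of 22 Th2 libraries. CpG32, CpG36 and, less so, CpG37 thus lay between the first 3 CpGs and the group of CpG33, CpG34 and CpG35, which held the most methylation. In 16 of 16 Th2 libraries without TET deletion or a Gata3 sgRNA, each of the first 3 CpGs was below each of the last 6.

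Neighbouring amplicons show where on the locus these levels fall. The 6 CpGs of exon 1 with enough reads, upstream of CpG29, had 43.8% ± 3.00 (SD, n = 4) in WT cells of the second cycle, and the 5 CpGs of the HSII 3′ amplicon, in intron 2, had 30.1% ± 5.27 (SD, n = 4), against 55.2% ± 3.01 (SD, n = 4) for the 9 CpGs. The 5 CpGs of exon 3 kept 95.7% ± 0.262 (SD, n = 4). The first 3 CpGs, at 28%, were thus as low as the HSII 3′ amplicon, and the last 6, at 68.8%, lay between exon 1 and exon 3. Against naïve cells 5 of 5 CpGs were called lower in HSII 3′ and 0 of 5 in exon 3 in the same regression, and exon 1 could not be tested there for want of reads in naïve replicate 2.

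Loss of the TET enzymes left the 9 CpGs almost as methylated as in naïve cells after the first cycle. In TET iTKO cells CpG29 had 88.9% and 90%, against 28.9% and 30.8% in WT, and CpG31 had 92.4% and 94.2%, against 53.9% and 61.4%. CpG36, in exon 2, had 95.8% and 93.5%, against 86.5% and 86.7%. The genotypes did not overlap at these CpGs, and at CpG34 they did, with 97.7% and 94% against 94.9% and 92%. Means were 93.2% ± 0.186 (SD, n = 2) over the first 3 CpGs and 94.3% ± 0.404 (SD, n = 2) over the last 6, so that the difference along the amplicon was -1.05 ± 0.218 points, against -36.0 ± 4.04 points in the WT libraries of the same line.

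In this comparison 7 of the 9 CpGs were called higher in TET iTKO cells, where 36 of 60 Il4 CpGs (60%) were called. The difference was 59.6 points at CpG29 (limma-moderated adjusted p = 2.14e-07), 35.6 points at CpG31 (adjusted p = 9.3e-07) and 31.4 points at CpG30 (adjusted p = 9.53e-07), and 12.5 points at CpG32 (adjusted p = 0.00474). Both TET iTKO libraries were above both WT libraries at each of these CpGs. CpG33, CpG36 and CpG37 differed by 6.44, 8.07 and 9.34 points, and CpG34 and CpG35, by 2.37 and 5.14 points, did not pass. At CpG35 the genotypes did not overlap, and limma on log ratios called it (adjusted p = 0.0381). That tool called 8 of the 9 and 41 of the 60 in all. CpG33 kept its call in 1 of 4 fits that left out a library (without WT replicate 1; adjusted p from 0.0391 to 0.273, limma-moderated), CpG36 in 1 of 4 (without TET iTKO replicate 2; 0.0316 to 0.109) and CpG37 in 2 of 4 (without either replicate 2; 0.0362 to 0.0563), so these calls rest on single libraries. CpG35 was called without TET iTKO replicate 1 (0.0297 to 0.602).

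After the second cycle all 9 CpGs were higher in TET iTKO cells. CpG29 had 81.4% and 87.0% against 7.07% and 10.5% in WT, CpG30 had 93.3% and 95.3% against 41.4% and 43.4%, and CpG34 had 91.5% and 94.4% against 82.8% and 77.9%. No WT library reached the level of a TET iTKO library at any of the 9 CpGs. The call rule took 9 of 9, where 42 of 60 Il4 CpGs (70%) were called, with differences from 12.6 points at CpG34 (limma-moderated adjusted p = 0.00202) to 75.4 points at CpG29 (adjusted p = 3.62e-09). CpG36 lost its call without TET iTKO replicate 2, and its adjusted p ran from 0.00341 to 0.0909 over the fits that left out a library. The means differed by 60.5 ± 2.46 points over the first 3 CpGs and by 16.8 ± 2.74 points over the last 6 (combined SDs).

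In points the TET effect was larger in the second cycle than in the first at each of the 9 CpGs, by 7.08 points at CpG37 to 20.5 points at CpG30. On the logit scale of the quasi-binomial regression, 0 of the 9 CpGs were called for this change and 0 of 60 Il4 CpGs (0%). Without adjustment 1 of the 9, CpG29 (limma-moderated adjusted p = 0.185), and 16 of the 60 had p under 0.05. Limma on log ratios also called 0 of the 9, and 1 had an unadjusted p under 0.05. A change in the effect between the cycles was thus not shown.

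Between the cycles some CpGs were lower in TET iTKO cells too. CpG32 had 91.9% and 90.3% after the first cycle and 79.8% and 76.6% after the second, against 93.1% to 96.2% in naïve cells. CpG36 had 95.8% and 93.5%, then 76.2% and 84.6%, against 93.6% to 94.7%. CpG31 had 92.4% and 94.2%, then 85.0% and 86.9%, and CpG29 had 88.9% and 90%, then 81.4% and 87.0%. Both second-cycle libraries were below all first-cycle and naïve libraries at these 4 CpGs. CpG30 had 93.3% and 95.3% after the second cycle, within a point of its naïve range of 93.3% to 94.9%.

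Against naïve cells 2 of the 9 CpGs were called lower in TET iTKO cells of the second cycle, CpG32 by a difference of -16.9 points (limma-moderated adjusted p = 0.000203) and CpG36 by -13.9 points (adjusted p = 0.00109), where 12 of 54 Il4 CpGs (22.2%) were called, 9 of them lower and 3 higher. Against the first cycle of the same genotype the same 2 CpGs were called lower, CpG32 by -12.9 points (adjusted p = 0.0163) and CpG36 by -14.3 points (adjusted p = 0.00368), where 7 of 60 (11.7%) were called. These comparisons share the second-cycle libraries. In fits of the compared groups alone with the replicate number as a block, neither CpG was called in either comparison. The processing section below gives these fits, the same fits without the block and how far the numbers match. CpG36 lost its call against naïve cells without TET iTKO replicate 1 of the second cycle (adjusted p from 0.00246 to 0.0537 over the fits that left out a library). Against the first cycle the calls changed whichever library was left out: CpG32 alone held without replicate 1 of the second cycle, CpG36 alone without replicate 2 of either cycle, and none without replicate 1 of the first cycle. CpG31, with -7.42 points against naïve cells (adjusted p = 0.058) and -7.35 against the first cycle (adjusted p = 0.138), did not pass in the regression, but limma on log ratios called it in both comparisons (adjusted p = 0.0109 and 0.0383). CpG29, with -6.53 and -5.27 points, passed in neither.

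In TET iTKO cells of the second cycle the lowest of the 9 CpGs was CpG36 in replicate 1 and CpG32 in replicate 2, not CpG29. CpG32 stayed below CpG33 in 4 of 4 TET iTKO libraries, by 4.01 ± 0.971 points (SD, n = 2) in the first cycle and 15.7 ± 3.07 points (SD, n = 2) in the second. In the second cycle the first 3 CpGs averaged 88.2% ± 2.22 (SD, n = 2) and the last 6 averaged 88.5% ± 1.57 (SD, n = 2), a difference of -0.345 ± 0.658 points. In the HSII 3′ amplicon the TET iTKO mean was 40.5% ± 2.37 (SD, n = 2) in that cycle, and 5 of its 5 CpGs were called lower than in naïve cells.

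No difference in methylation was shown between TDG iKO and WT cells at the 9 CpGs in either cycle. After the first cycle CpG29 had 31.1% and 38.8% in TDG iKO cells, against 38.2% and 37.9% in WT, and CpG31 had 65.9% and 66.8%, against 68.0% and 63.5%. CpG36 had 87.2% and 87.0%, against 86.8% and 84.3%. The genotypes overlapped at 7 of the 9 CpGs, and both TDG iKO libraries were above both WT libraries at CpG36 and CpG32 (79.1% and 79.0%, against 78.2% and 75.1%). In TDG iKO cells the first 3 CpGs averaged 58.7% ± 2.61 (SD, n = 2) and the last 6 averaged 88.7% ± 0.565 (SD, n = 2), a difference of -30.0 ± 3.17 points, against -28.1 ± 0.901 in WT. None of the 9 CpGs was called (0 of 9), and 0 of 46 Il4 CpGs (0%) were called by the quasi-binomial regression or by limma on log ratios, with 0 of the 9 at an unadjusted p under 0.05 by either tool.

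After the second cycle CpG29 had 11.7% and 18.4% in TDG iKO cells, against 13.4% and 10.1% in WT, CpG30 had 49.6% and 48.7%, against 42.6% and 39.1%, and CpG31 had 38.3% and 40.3%, against 32.8% and 31.7%. Both TDG iKO libraries were above both WT libraries at 4 of the 9 CpGs, CpG30, CpG31, CpG32 (51.7% and 51.2%, against 50.3% and 47.6%) and CpG33 (78.4% and 75.4%, against 75.0% and 68.0%), and the genotypes overlapped at the other 5. All 9 mean differences were positive, from 1.42 points at CpG34 to 8.31 points at CpG30, and none passed: 0 of the 9 CpGs and 0 of 63 Il4 CpGs (0%) were called by the quasi-binomial regression, with 0 of the 9 at an unadjusted p under 0.05 and a lowest limma-moderated adjusted p of 0.87. Limma on log ratios called 0 of the 9 as well, 0 of them at an unadjusted p under 0.05. The difference over the first 3 CpGs was 6.21 ± 2.63 points and over the last 6 it was 3.69 ± 5.69 points (combined SDs). Differences of this size are not excluded at 2 libraries per group.

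The second cycle lowered methylation in TDG iKO cells as it did in WT cells. All 9 CpGs were called lower than in the first cycle, where 37 of 46 Il4 CpGs (80.4%) were called, from -27.6 points at CpG32 (limma-moderated adjusted p = 3.76e-05) to -12.6 points at CpG35 (adjusted p = 0.00146). CpG34 lost its call without TDG iKO replicate 2 of the second cycle (adjusted p from 0.00288 to 0.0549 over the fits that left out a library). The libraries of the cycles did not overlap at any of the 9 CpGs.

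Whether the TET effect exceeded the TDG effect was tested as an interaction in the same quasi-binomial regression. After the first cycle 3 of the 9 CpGs were called, where 29 of 46 Il4 CpGs (63%) were called, and they were the first 3: the effects differed by 62.7 points at CpG29 (limma-moderated adjusted p = 1.01e-05), 35.1 at CpG31 and 30.3 at CpG30 (adjusted p = 2.68e-05 for each). CpG32, with 10.1 points, lay at the threshold (adjusted p = 0.05). Limma on log ratios called 6 of the 9 here and 32 of the 46 Il4 CpGs. It called CpG32, CpG36 and CpG37 besides (adjusted p = 0.0461, 0.0446 and 0.0263), so by that tool the calls were not confined to the first 3. After the second cycle 8 of the 9 were called, where 38 of 60 (63.3%) were called, from 72.1 points at CpG29 (adjusted p = 5e-06) to 9.40 points at CpG33 (adjusted p = 0.021), and CpG36 was not (11.7 points, adjusted p = 0.0711). The calls at CpG33, CpG34, CpG35 and CpG37 were lost without TDG WT replicate 1, TDG iKO replicate 2, TET iTKO replicate 2 or TET WT replicate 2 of the second cycle. CpG36 was called without TDG WT replicate 2, TDG iKO replicate 1 or TET iTKO replicate 1. The first 3 CpGs and CpG32 kept their calls in 8 of 8 such fits.

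PB sequencing asked whether 5fC and 5caC accumulate where TDG is missing. Levels are percentages of T after halving the number of C reads, as in the study's methods. In TDG iKO cells CpG29 had 4.97% (95% interval 4.47 to 5.52), against 0.821% (0.628 to 1.07) in WT, and CpG30 had 1.58% (1.31 to 1.92), against 0.248% (0.153 to 0.403). The intervals of both CpGs lie well apart, and both KO levels exceed the highest of 49 single cytosines outside CpGs in that library, 0.571%. CpG31 had 0.857% (0.660 to 1.11) against 0.434% (0.301 to 0.626). From CpG33 to CpG37 the highest KO level was 0.449%, at CpG35, and each KO interval overlapped with that of WT. CpG32 was lower in the KO library, with 0.265% (0.166 to 0.424) against 0.602% (0.441 to 0.822).

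In the CD4-Cre pair CpG29 had 6.26% (5.47 to 7.16) in Tdg-KO cells, against 0.109% (0.0464 to 0.254) in WT, CpG31 had 2.11% (1.65 to 2.68), against 0.130% (0.0597 to 0.283), and CpG30 had 0.942% (0.653 to 1.36), against 0.0868% (0.0338 to 0.223). All of the first 3 CpGs were again higher in the KO library. Of the last 6, CpG37 had 1.14% (0.786 to 1.65), against 0.0908% (0.0309 to 0.267), and CpG33 had 0.808% (0.518 to 1.26), against 0.121% (0.0473 to 0.312). CpG32 and CpG36 went the other way, with 0.0336% and 0.0425% in the KO library against 0.861% and 0.904% in WT. At CpG35 the KO library had 0 reads with T of 4709, for which the interval ends at 0.163%.

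A CpG was called here when Fisher's exact test, two-sided, gave an adjusted p under 0.05 and the levels differed by 1 point or more. In the TDG iKO pair 2 of the 9 CpGs were called, CpG29 (adjusted p = 4.3e-49, Fisher's exact test) and CpG30 (adjusted p = 2.83e-16), where 17 of 47 Il4 CpGs (36.2%) were called. In the CD4-Cre pair 3 of the 9 were called, CpG29 (adjusted p = 3.31e-70), CpG31 (adjusted p = 3.7e-19) and CpG37 (adjusted p = 8.21e-08), where 23 of 47 (48.9%) were called. Single cytosines outside CpGs reached 2.31% in this KO library and 1.42% in its WT. Of 49 in the KO library, 0 lay above CpG29, 1 above CpG31 and CpG37, 6 at or above CpG30 and 13 at or above CpG33. The levels of CpG30, CpG31, CpG33 and CpG37 are thus within the range of such sites. With C reads not halved 1 of the 9 passed in each pair. These tests compare a pair of libraries, not the genotypes. The TDG iKO pair has samples labelled as 2 replicates, which were summed as runs of 1 library, and the CD4-Cre pair has no replicate. The paper describes its PB data on the inducible deletion as representative of 2 independent experiments. Averaged, the first 3 CpGs had 2.47% in TDG iKO cells against 0.501% in WT, and 3.10% against 0.108% in the CD4-Cre pair. The last 6 had 0.310% against 0.316%, and 0.359% against 0.360%.

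On the minus strand the mean level in both KO libraries was thus higher at the first 3 CpGs than at the last 6. CpG29, which lost the most methylation, had the highest level in both. In the CD4-Cre KO library CpG29 alone of the first 3 lay above every single cytosine outside CpGs. In the CD4-Cre WT library the mean of the last 6 CpGs was above that of the first 3 through CpG32 and CpG36. CpG32, with a difference of -45.5 ± 2.65 points from naïve cells by the second cycle, had no excess in either KO library on this strand. Among the neighbouring amplicons, 2 of 7 CpGs were called higher in exon 1 in the TDG iKO pair and 1 of 7 in the CD4-Cre pair, 0 and 1 of 5 in HSII 3′, and 0 of 5 in exon 3 in both.

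Methylation was higher across the amplicon with the Gata3 sgRNAs than in their mock library. CpG29 had 30.1% (29.5 to 30.8) in the mock library, 67.5% (66.9 to 68.1) with sgGATA3-1 and 64.3% (63.8 to 64.9) with sgGATA3-2. CpG30 had 65.9%, 93% and 84.8% in the same order, and CpG31 had 61.6%, 86.7% and 83.4%. At all 9 CpGs both sgRNA libraries were above the mock library, and at each the mock library was lower than every naïve library. The smallest gain was at CpG34, from 91.6% to 96% and 93.3%. Among WT libraries of the first cycle without a sgRNA, replicate 3 of the first set came nearest, with 65.7% at CpG29, 78.0% over the first 3 CpGs and a difference of -14.2 points between the first 3 and the last 6, which is below sgGATA3-1 and just above sgGATA3-2.

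With a minimum difference of 10 points beside an adjusted p under 0.05 in Fisher's exact test, two-sided, 5 of the 9 CpGs were called higher with sgGATA3-1 (the first 3, CpG32 and CpG36) and 4 of the 9 with sgGATA3-2 (the first 3 and CpG32). In each comparison 29 of 64 Il4 CpGs (45.3%) were called. The comparisons share the mock library, and none has a replicate. The first 3 CpGs averaged 52.5% in the mock library, 82.4% with sgGATA3-1 and 77.5% with sgGATA3-2, and the last 6 averaged 85.7%, 94.4% and 91.8%. The difference along the amplicon, -33.2 points in the mock library, was -12.0 and -14.3 points with the sgRNAs, so that the gradient was smaller and still present.

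The gain did not bring CpG29 to its naïve level. With sgGATA3-1 it closed 61.7% of the gap between the mock library and the naïve mean at CpG29, 78.9% at CpG31 and 96.6% at CpG30, and with sgGATA3-2 it closed 56.5%, 68.5% and 67.4%. At CpG33 both libraries, with 92.8% and 92.6%, lay within the naïve range. At CpG34 and CpG37 sgGATA3-1 lay above that range, and at CpG35 it lay at the upper edge (97.6533% against 97.6465%). In the neighbouring amplicons 4 and 6 of 7 CpGs were called higher in exon 1 with the respective sgRNA, 5 and 5 of 5 in HSII 3′, and 0 and 0 of 5 in exon 3.

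By TAPS, another chemistry, CpG29 was again the lowest CpG in Th2 cells, followed by CpG31. CpG29 had 24.4% (23.5 to 25.2) in Th2 cells against 76.3% (75.2 to 77.4) in naïve cells, CpG31 had 41.5% (40.5 to 42.5) against 99.8% (99.6 to 99.9), and CpG30 had 46.2% (45.2 to 47.2) against 99.7% (99.5 to 99.8). Th2 cells were lower at all 9 CpGs. CpG32, not separable from CpG30, had 46.3% (45.4 to 47.3) against 83.3% (82.3 to 84.2), and CpG37, the highest in Th2 cells, had 90.6% (89.7 to 91.4) against 99.7% (99.5 to 99.8). On average the first 3 CpGs had 37.4% in Th2 and 91.9% in naïve cells, and the last 6 had 73.6% and 94.9%.

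By Fisher's exact test, two-sided, with an adjusted p under 0.05 and 10 points or more, 7 of the 9 CpGs were called lower in Th2 cells, where 38 of 47 Il4 CpGs (80.9%) were called. CpG34 and CpG37, with -6.12 and -9.13 points, missed the minimum difference. CpG29 fell by 51.9 points, CpG30 by a difference of -53.5 points and CpG31 by -58.3 points.

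The TAPS libraries did not match the bisulfite libraries of the same cell type in level. In naïve cells TAPS was below the bisulfite range at CpG29, CpG32 and CpG34 and above it at the other 6 CpGs. At CpG32 the minus strand gave 83.3% and the plus strand of the same CpG 97.9% (97.5 to 98.3), and at CpG34 they gave 88.4% and 99.8%, while at CpG29 both were low, with 76.3% and 75.5%. In Th2 cells TAPS was below the range of the 3 first-cycle bisulfite libraries at 8 of the 9 CpGs and within it at CpG37, with a mean over the 9 CpGs of 61.5% against 81.9% ± 4.98 (SD, n = 3). Against the second-cycle WT libraries TAPS was within the range at CpG33 to CpG36 and below it at CpG32. At CpG29, CpG30, CpG31 and CpG37 it was above that range. By its label the Th2 TAPS library is of the first cycle. The strands of the Th2 library differed by 36.0 points at CpG32, where the plus strand had 82.3%, and by 16.5 points at CpG30, where it had 62.7%, as high as CpG36 on that strand (62.6%). At CpG37 the plus strand had 72.8%. Why the methods differ was not tested.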

How the data were processed

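The authors mapped amplicon reads to mm9 with BSMAP and deposited, for each cytosine, the count of reads with C and the count with C or T, without normalisation. Amplicons were placed by their primers on NCBIM37 chromosome 11, and levels were computed from the counts: C for bisulfite, T with C reads multiplied by 0.5 for PB, T for TAPS. Samples whose files carry the name of 1 library (TDG line, first cycle, and the TDG iKO PB pair) were taken as runs of it (levels averaged for bisulfite, reads summed for PB), which the labels do not state. The CpGs named in the text are the 9 of the amplicon, chosen by position.

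The 64 CpGs were fitted together in 22 libraries of 10 groups by quasi-binomial regression (R 4.3.3), a common variance of libraries for every CpG (0.00953), dispersions moderated by squeezeVar of limma 3.58.1 and not below 1, a minimum of 100 reads, two-sided F-tests and Benjamini-Hochberg adjustment. Alternatives were minimums of 20 or 500 reads, limma on log2 ratios with 1 added, other fits and libraries left out. Single libraries were compared by Fisher's exact test (Python 3.11.15, SciPy 1.17.1, NumPy 2.4.6). The regression was tried on simulated data for 1 contrast, TET iTKO against WT after the first cycle. The simulated starting levels were well below those of naïve cells, so comparisons of highly methylated CpGs were not covered. Means over CpGs have SDs and no test. The members and lists were chosen with earlier results of these data known. The 6 macrophage samples do not cover Il4 and were not used.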

Additional observations from a re-analysis of the deposited data

Results flagged for a closer look

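By a test of the difference itself, the effect of TET loss differed from that of TDG loss at several of the 9 CpGs. After the first cycle 3 of the 9 were called, where 29 of 46 Il4 CpGs (63%) were called. Limma on log ratios called 6 of the 9 and 32 of the 46. After the second cycle 8 of the 9 were called, where 38 of 60 (63.3%) were called. Limma called 7 of the 9 and 39 of the 60. The libraries on which the second count rests are given above.

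PB reads of the plus strand, which the comparisons above do not use, also had more T in the KO than in the WT library at several CpGs, with intervals that do not overlap. In TDG iKO cells the plus strand had 2.97% at CpG29, 1.76% at CpG30 and 3.05% at CpG31, against 0.0877%, 0.349% and 0.0874% in WT. At CpG36 it had 0.602%, against 0.204%. CpG35 went the other way, with 0.201% (0.115 to 0.351) against 0.543% (0.385 to 0.766) in WT, and so did CpG32, with 1.22% against 2.29% and intervals that overlap. In the CD4-Cre pair it had 3.32% at CpG29, 3.12% at CpG30 and 6.33% at CpG31 in the Tdg-KO library, against 0%, 0.175% and 0% in WT, where 0 reads of 2279 and of 2286 had T. CpG34 had 0.542% and CpG35 0.830%, against 0.0651% and 0.0868%. CpG31 was thus the highest CpG of the plus strand in the CD4-Cre KO library, while in TDG iKO cells CpG31 and CpG29 cannot be ranked. Single plus-strand cytosines outside CpGs with at least 100 reads reached 12.7% in TDG iKO cells, where 8 of 83 were at or above CpG29 and CpG31 and 10 at or above CpG30, and 3.39% in the CD4-Cre KO library, where 1 of 75 was above CpG29 and CpG30 and 0 above CpG31. In the WT libraries they reached 13.4% and 8.47%. The plus-strand levels other than CpG31 in the CD4-Cre KO library are thus within the range of such sites. The plus strand had 2072 to 2260 reads at these first 3 CpGs in the KO libraries. Whether the strands differ was not tested.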

How the results depend on the processing

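The counts of called CpGs among the 9 moved by at most 1 under every alternative tried for naïve cells against the second cycle, for the second against the first cycle in WT and TDG iKO cells, and for TET iTKO against WT after the second cycle, and the counts of 0 remained 0.

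The replicate numbers do not pair the libraries throughout. The deviations of same-numbered naïve and Th2 libraries correlated at 0.0593, -0.0938 and -0.02, and 0 of 3 naïve libraries correlated best with its own number. For TET WT and TET iTKO libraries of 1 number the correlation was -0.261 (first cycle) and -0.0342 (second cycle), and each matched the other number better. Between the cycles it was 0.191 in TET WT and 0.0807 in TET iTKO cells, best with the own number, and -0.462 in TDG WT and -0.0261 in TDG iKO cells, best with the other. For TDG WT and TDG iKO libraries it was 0.592 and 0.347, best with the own number. Within those pairs TDG iKO was higher in 2 of 2 at 4 of the 9 CpGs in the first and 7 of the 9 in the second cycle, and with the number as a block 0 of the 9 were called in either cycle. In fits of the compared groups alone that take the replicate number as a block, 4 of the 9 CpGs were called for naïve cells against the first cycle (27 of 56, and the same counts without the block), 3 for TET iTKO against WT after the first cycle (21 of 60 Il4 CpGs; without the block 6 and 35), and for TET iTKO cells after the second cycle 0 against naïve cells (5 of 54; without the block 4 and 26) and 0 against the first cycle (0 of 60; without the block 1 and 6), so that neither CpG32 nor CpG36 was called there (adjusted p = 0.0738 and 0.085 against naïve cells, 0.348 and 0.316 against the first cycle, with limma-moderated dispersions). With crossed numbers, an alternative added after seeing the data, TET iTKO against WT after the first cycle gave 8 of the 9 and 44 of 60.

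Fits of the compared groups alone, without a block, gave 4 of the 9 for second-cycle TET iTKO against naïve cells (26 of 54 instead of 12). Against its first cycle they gave 1, with the count over the locus given above. For the TET effect minus the TDG effect after the first cycle limma gave 6 of the 9 (32 of 46 Il4 CpGs instead of 29). Fits of the compared groups alone and runs taken as replicates also called more of the 9 there than the main fit.

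Leaving out 1 library at a time changed the calls among the 9 for second-cycle TET iTKO against naïve cells and its first cycle. It also changed those for the TET effect minus the TDG effect after the second cycle, as given above with the libraries. Some groups then have 1 library, which is assumed to vary like the others.

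A minimum of 500 reads kept all 9 CpGs and fewer of the other Il4 CpGs, so that the counts over the locus were lower for naïve cells against the first cycle (6 of 18 instead of 33 of 56), the second cycle (13 of 18 instead of 42) and second-cycle TET iTKO (2 of 18 instead of 12), for the second against the first cycle in WT (19 of 27 instead of 38) and TDG iKO (18 of 27 instead of 37), and for the TET effect minus the TDG effect in the first (12 of 27 instead of 29) and second cycle (19 of 35 instead of 38). Of the 9, the comparisons with naïve cells called 5, 9 and 2.

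Without a minimum difference 4 of the 9 CpGs passed in the TDG iKO PB pair (35 of 47 instead of 17), 7 in the CD4-Cre pair (36 of 47 instead of 23), 9 with sgGATA3-1 (62 of 64 instead of 29) and 9 with sgGATA3-2 (61 of 64 instead of 29). Of the CpGs that so passed in PB, CpG32 was lower in the KO library in both pairs and CpG36 in the CD4-Cre pair. Without halving the C reads 1 passed in each PB pair (10 and 19 of 47), and the first 3 CpGs had 0.251% in WT and 1.26% in TDG iKO cells, 0.0543% and 1.59% in the CD4-Cre pair, and the last 6 had 0.158% and 0.155%, 0.181% and 0.180%. With C reads halved in TAPS the first 3 CpGs had 95.4% in naïve and 53.7% in Th2 cells and the last 6 had 97.3% and 83.8%. Weighted by reads, the mean over the 9 CpGs was 77.9% in TDG iKO cells of the first cycle and 55.8% in TET WT cells of the second, moves of over 1 SD.

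Groups of 2 libraries, and 1 library per group for PB, TAPS and the sgRNAs, limit what can be shown.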

Other observations

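Runs of 1 library give the technical spread at the 9 CpGs. The 2 runs of TDG WT cells after the first cycle differed by at most 2.72 points, and at 3 of the 9 CpGs with an unadjusted p under 0.05 by Fisher's exact test, and those of TDG iKO cells by at most 1.65 points and at 1 of the 9. The PB runs differed by at most 0.392 points in WT and 0.451 points in TDG iKO cells. In each genotype 2 of the 9 CpGs had an unadjusted p under 0.05 between PB runs by the same test. CpG29, with 4.70% and 5.15% in the runs of TDG iKO cells against 0.966% and 0.703% in WT, kept its difference in either run.

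The mock library of the Gata3 experiment lay within the range of the 7 other WT libraries of the first cycle at 7 of the 9 CpGs. It was below that range at CpG34 and CpG36.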
